A study of Mus musculus with 8 samples.

Results

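The effect of a mutant genotype on the oocyte transcriptome was contrasted between a pair of mouse lines, one targeting H2A.Z and the other targeting Mll2. Polyadenylated RNA was sequenced from full-grown oocytes, the cells that have finished growth in the ovary, in 8 libraries, with about 20 zona-free oocytes pooled for each library. The H2A.Z line held 2 control libraries labelled wild type and 2 libraries labelled as a double knockout (DKO) of H2A.Z.1 and H2A.Z.2. The Mll2 line held 2 wild-type (WT) and 2 Mll2 knockout (KO) libraries, and each mutant was set against the control of its own line. Cre driver, strain and age are not in the labels, nor is the animal behind each pool, so the p-values speak only for the variation among these 8 libraries, which may be technical. For each of 16847 tested genes, out of 35976 gene symbols in the count table, the effect in a line was the log2 difference of mutant minus control. The difference between the effects was the H2A.Z line effect minus the Mll2 line effect (the interaction contrast), and it was positive where the effect was higher in the H2A.Z line. A gene was called where the adjusted p (edgeR quasi-likelihood test, Benjamini-Hochberg over all tested genes) was under 0.05, and its calls in the H2A.Z line, in the Mll2 line and in the difference set its class. Levels are CPM, counts scaled to library size, in the order of replicates 1 and 2.

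The variant histone H2A.Z is deposited in place of H2A at promoters and enhancers by the SRCAP and TIP60 complexes and can be removed by INO80 or ANP32E. MLL2, encoded by Kmt2b, is a methyltransferase that places methyl groups on lysine 4 of histone H3, and in growing oocytes it is known for the broad domains of trimethylated lysine 4 laid down outside promoters. Full-grown oocytes are close to transcriptional silence, so their RNA is largely a store built up during growth, from which meiosis and the early embryo are run.

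The targeted genes were read first. H2afz (chromosome 3, 137864487 to 137866922, build mm10), which encodes H2A.Z.1, measured 23.9 and 30 CPM in the H2A.Z controls, 322 and 317 CPM in the libraries labelled DKO, 7.04 and 7.09 CPM for Mll2 WT and 19.4 and 15 CPM for Mll2 KO. It was therefore higher, not lower, under the DKO label, and it was also higher in Mll2 KO, with no overlap of mutant and control in either line. Mutant and control libraries failed to overlap for 70.3% of all tested genes in the H2A.Z line and 64.2% in the Mll2 line. The H2afz increase was larger in the H2A.Z line by 2.28 ± 0.20 (SE) on the log2 scale (edgeR adjusted p = 1.83e-06). For H2afv (chromosome 11, 6427226 to 6444511), which encodes H2A.Z.2, the levels were 107.9 and 107.2 CPM in the controls, 285 and 294 CPM under the DKO label, 86.8 and 88.2 CPM for Mll2 WT and 93.7 and 106 CPM for Mll2 KO. The difference between its effects was 1.24 ± 0.14 (adjusted p = 2.6e-05). Without Mll2 KO 1, where Mll2 KO 2 stood alone, a rise in the Mll2 line was called too. Kmt2b (chromosome 7, 30568855 to 30589056) measured 13.7 and 15.4 CPM in the H2A.Z controls, 20.4 and 20.6 CPM under the DKO label, 41.9 and 42.4 CPM for Mll2 WT and 8.73 and 9.28 CPM for Mll2 KO. Its effects differed by 2.72 ± 0.21 (adjusted p = 4.78e-07), but its rise under the DKO label (0.49 ± 0.15) was lost without either H2A.Z control, either library labelled DKO or Mll2 WT 2, with adjusted p from 0.0601 to 0.153. Counts cover whole genes and the deleted exons are not given in the labels, so transcripts of a modified allele are counted with intact ones. Because H2afz and H2afv go against the label, every direction given below for the H2A.Z line is a direction of the libraries labelled DKO, in which the H2A.Z transcripts were not reduced.

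Totals ran from 20309233 to 30087863 counts per library. Oocyte markers summed to between 15597 and 23769 CPM in every library. Granulosa and cumulus markers summed to between 85.4 and 89.5 CPM in the 4 controls, to 121 and 124 CPM under the DKO label and to 106 and 109 CPM in Mll2 KO. Theca and stroma markers stayed between 2.68 and 6.79 CPM, and blood, immune and endothelial markers between 22.2 and 44.5 CPM. In bulk pools, fewer cells of a type and less RNA per cell cannot be told apart. The Mll2 KO libraries had limma quality weights of 0.432 and 0.431, against 1.22 to 1.46 in the other libraries.

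Genes that were lost in a single mutant give the contrast its plainest form, and the promoters of 6 of them are shown here so that their sequence, and its CG dinucleotides, can be read beside the values below. Each run is the 250 bases before the annotated start in RefSeq (GRCm38.p6, the build also called mm10), read 5′ to 3′ on the gene's strand, with CG in capitals. Zfp770, Tex12 and Sycp3 fell in Mll2 KO and not under the DKO label.
Zfp770, chr2:114201433-114201682, minus strand: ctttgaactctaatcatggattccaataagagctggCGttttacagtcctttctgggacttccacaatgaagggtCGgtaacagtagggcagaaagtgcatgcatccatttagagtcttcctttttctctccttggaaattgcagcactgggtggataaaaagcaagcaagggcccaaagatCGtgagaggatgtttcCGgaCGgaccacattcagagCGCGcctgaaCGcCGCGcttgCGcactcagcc
Tex12, chr9:50561269-50561518, minus strand: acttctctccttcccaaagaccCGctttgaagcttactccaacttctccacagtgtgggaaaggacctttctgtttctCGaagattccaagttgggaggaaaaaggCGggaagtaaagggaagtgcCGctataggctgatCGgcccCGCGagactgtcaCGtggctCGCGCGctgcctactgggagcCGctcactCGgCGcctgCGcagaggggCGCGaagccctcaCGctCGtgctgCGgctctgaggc
Sycp3, chr10:88459337-88459586, plus strand: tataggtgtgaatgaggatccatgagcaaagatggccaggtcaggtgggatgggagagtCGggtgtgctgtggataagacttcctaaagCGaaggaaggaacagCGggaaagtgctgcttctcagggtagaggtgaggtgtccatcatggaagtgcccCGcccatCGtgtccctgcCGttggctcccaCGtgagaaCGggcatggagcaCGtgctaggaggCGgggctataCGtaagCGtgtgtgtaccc
Zfp85, Nicn1 and Zc4h2 fell under the DKO label and not in Mll2 KO.
Zfp85, chr13:67755203-67755452, minus strand: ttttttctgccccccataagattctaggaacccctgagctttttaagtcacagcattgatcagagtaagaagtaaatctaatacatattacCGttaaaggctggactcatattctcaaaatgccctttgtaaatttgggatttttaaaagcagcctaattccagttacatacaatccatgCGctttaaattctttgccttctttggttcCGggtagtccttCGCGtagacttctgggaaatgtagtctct
Nicn1, chr9:108290193-108290442, plus strand: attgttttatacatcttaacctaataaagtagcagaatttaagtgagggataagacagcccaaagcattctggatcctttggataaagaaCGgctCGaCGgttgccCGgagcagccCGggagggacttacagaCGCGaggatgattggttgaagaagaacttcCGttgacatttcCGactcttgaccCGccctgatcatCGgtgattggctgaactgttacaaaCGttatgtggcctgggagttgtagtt
Zc4h2, chrX:95658510-95658759, minus strand: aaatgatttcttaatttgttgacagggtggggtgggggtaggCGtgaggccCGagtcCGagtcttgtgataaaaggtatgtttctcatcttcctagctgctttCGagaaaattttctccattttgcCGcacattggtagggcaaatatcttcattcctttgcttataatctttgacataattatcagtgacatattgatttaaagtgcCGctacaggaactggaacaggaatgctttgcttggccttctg
The runs of Zfp770, Tex12 and Sycp3 held 11, 20 and 12 CG, and those of Zfp85, Nicn1 and Zc4h2 held 5, 12 and 6, so the counts of the sets overlapped. These genes were chosen after their values were seen, and the whole classes did not part as far. Over the 300 bases from 250 before to 50 after the start, the median CG count was 20 for 603 protein-coding genes lower in the Mll2 line alone, 18 for 396 lower in the H2A.Z line alone, and 19 for all 10868 tested protein-coding genes with a window (80.8% of 13444).

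The effects of the lines were related only in part. In the H2A.Z line 5198 genes were called (30.9% of those tested), 3269 higher (19.4%) and 1929 lower (11.5%). In the Mll2 line 5158 were called (30.6%), 2428 higher (14.4%) and 2730 lower (16.2%). Which direction held more genes depended on the scaling. With library size alone 2063 were higher and 2467 lower in the H2A.Z line, and 3418 and 2013 in the Mll2 line. With each effect centred on 0 they were 2119 and 2512 in the H2A.Z line, and 2322 and 2847 in the Mll2 line. Counts given below for each line in gene lists, and the all-gene shares beside them, use the scaling of the 5198 and 5158. The difference between the effects was called for 3291 genes (19.5%), of which 2165 (12.9%) had the higher effect in the H2A.Z line and 1126 (6.68%) in the Mll2 line. It was more than 2-fold for 1063 and 746 of them, more than 4-fold for 402 and 308, and more than 8-fold for 179 and 119. With 1 library left out, the number higher ran from 918 (without Mll2 WT 2) to 2596 (without Mll2 KO 2), and the number lower from 578 (without H2A.Z control 2) to 2178 (without Mll2 KO 1). Across 16847 genes the effects had a Pearson r of 0.34 and a Spearman rho of 0.32. This is a description across genes, which are not independent and which share 1 library scaling. The difference was called more often where a gene was more abundant, from 6.38% in the lowest of 5 equal bins by level to 26.8% in the highest.

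**Figure D1:**
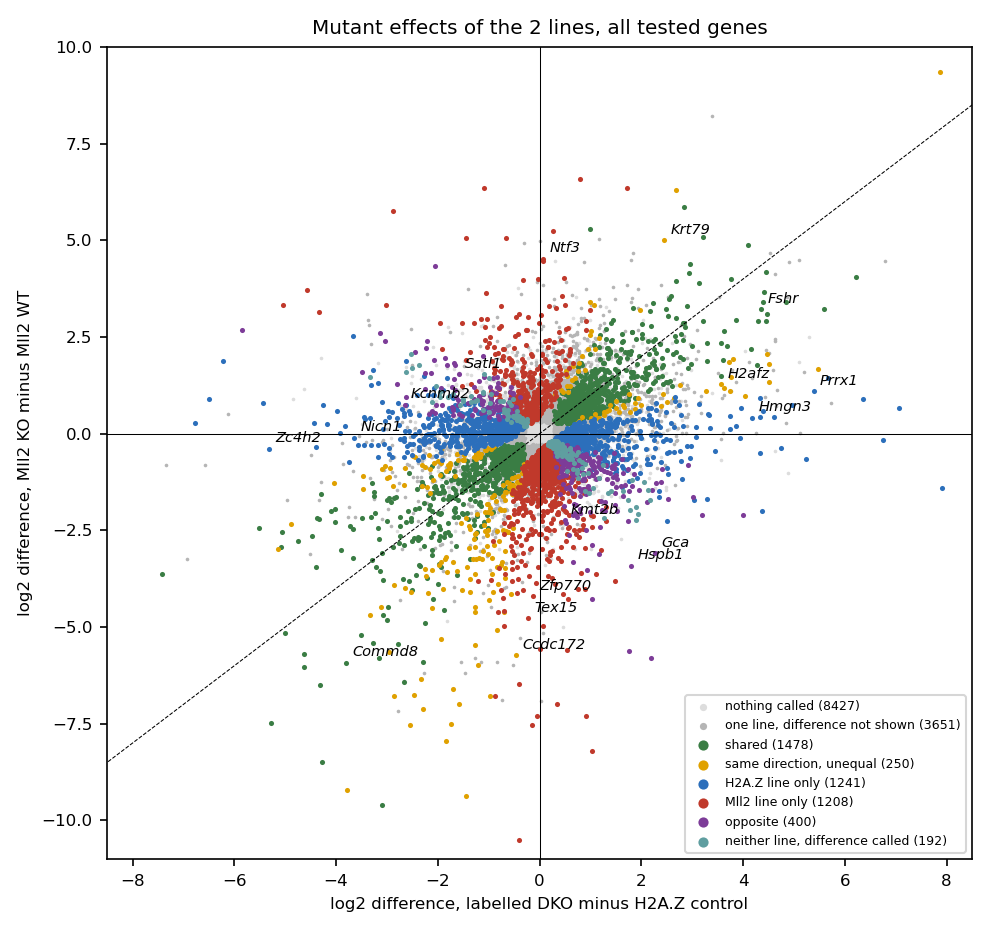
Each point is a tested gene, with its log2 difference in the H2A.Z line (labelled DKO minus control) on the horizontal axis and in the Mll2 line (KO minus WT) on the vertical axis, coloured by class; brackets give the number of genes. Shared genes lie along the dashed line of equal effects, genes of 1 line lie along an axis (1241 and 1208), and the 400 opposite genes lie in the upper left and lower right.

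Genes fell into classes as follows. A change in the same direction in both lines, with no called difference, was found for 1478 genes, 921 higher (5.47%) and 557 lower (3.31%). Such a miss does not show equal effects: the 95% interval of the difference lay within 2-fold for 984 of them (66.6%). A further 250 genes (1.48%) changed in the same direction by unequal amounts. Opposite changes were found for 400 genes (2.37%), 284 higher under the DKO label and lower in Mll2 KO, and 116 the reverse. Changes in the H2A.Z line alone, with a called difference, numbered 1241 (7.37%), 724 higher and 517 lower, and in the Mll2 line alone 1208 (7.17%), 347 higher and 861 lower. For 3651 genes 1 line was called and the other was not, yet the difference was not called. Hence only 40.4% of the 3070 genes called in the H2A.Z line and not in the Mll2 line were shown to differ between lines, and 39.9% of the 3030 called in the Mll2 line and not in the other. A last 192 genes had a called difference and no called effect in either line, and 8427 had no call.

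Of the genes higher under the DKO label, 988 were also higher in Mll2 KO. That was 30.2% of the H2A.Z line genes, beside 14.4% of all tested genes higher in Mll2 KO. It was 40.7% of the Mll2 line genes, beside 19.4% of all tested genes higher under the DKO label. Of those lower under the DKO label, 740 were also lower in Mll2 KO, or 38.4% and 27.1%, beside 16.2% and 11.5%. The 284 opposite genes higher under the DKO label made up 8.69% and 10.4% of the genes called in those directions. The 116 opposite genes lower under it made up 6.01% and 4.78%. The median log2 effect over all tested genes was 0.12 in the H2A.Z line and 0.02 in the Mll2 line, and the median difference was 0.12. That shift depended on the scaling: with library size alone the median difference was -0.12, with relative log expression factors 0.06 and with each effect centred on 0 it was 0.01. The share of called differences that were higher in the H2A.Z line was 65.8%, 37.0% with library size alone, 58.8% with relative log expression factors, 53.1% with centring and 49.98% with each line fitted alone. It was 52.97% without Mll2 WT 2 and 53.1% without Mll2 KO 1. Medians of gene groups are therefore given relative to all genes. The fit was repeated with each of the 8 libraries left out and with those 3 scalings, 11 repeats in all, and the called difference was kept in every repeat by 792 of the 2165 higher and 435 of the 1126 lower genes. The whole class was kept by 56 opposite genes, 225 of the H2A.Z line alone, 287 of the Mll2 line alone, 66 unequal genes and 266 shared genes, 129 higher and 137 lower. Genes named below kept their class in all 11 repeats unless the text says otherwise. That was not checked for Cdc16, Stip1, Sycp2, Krt8, Nr5a2, Xlr3a and Pax6. Cth also changed class without DKO 2, and H3f3b with library size alone, with centring and without Mll2 KO 2. A group left with 1 library was assumed to vary like the others. The Mll2 KO libraries had the lowest quality weights, so calls gained without 1 of them may be made too readily. Library size alone changed the class, while leaving the difference called, for H2afv, Kmt2b, Prrx1, Zfp85, Pabpn1l, Mael, Ddit3, Rpl17, Mrpl50, Atp5g3 and Slc30a4. Centring did so for Kmt2b, Mael, Ddit3, Rpl17, Atp5g3 and Slc30a4, and relative log expression factors for Prrx1, Mael and Ddit3.

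Among opposite genes at 10 CPM or more in their highest group, the largest differences were those of genes that rose under the DKO label and nearly disappeared in Mll2 KO. Gca (chromosome 2, 62664327 to 62694109), which encodes the calcium-binding protein grancalcin, measured 3.31 and 4.66 CPM in the H2A.Z controls, 21.9 and 16.9 CPM under the DKO label, 3.7 and 4.39 CPM for Mll2 WT and 0.674 and 0.269 CPM for Mll2 KO. The controls of the lines thus lay close together and the mutants moved apart from them in opposite directions, without overlap. The effects were 2.27 ± 0.26 and -3.09 ± 0.35, a difference of 5.36 ± 0.43 (41.1-fold, adjusted p = 8.53e-07). Hspb1, a small heat shock protein gene, measured 3.67 and 5.22 CPM in the H2A.Z controls, 16.8 and 14.5 CPM under the DKO label, 3.37 and 4.95 CPM for Mll2 WT and 0.405 and 0.37 CPM for Mll2 KO. It had the same arrangement as Gca and a difference of 5.21 ± 0.41 (adjusted p = 6.11e-07). Neto2, an auxiliary subunit gene of kainate receptors, had 7.39 and 6.58 CPM in the H2A.Z controls, 17.6 and 13.5 CPM under the DKO label, 8 and 8.24 CPM for Mll2 WT and 1.11 and 0.773 CPM for Mll2 KO. Its difference was 4.26 ± 0.33 (adjusted p = 5.14e-07).

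Epha7, an ephrin receptor gene, and Hspa1b, an inducible HSP70 gene, completed the 5 largest of this kind, with less even support. Epha7 measured 3.37 and 1.15 CPM for Mll2 WT and 0.843 and 0.202 CPM for Mll2 KO, and its fall there was lost without Mll2 WT 1 or Mll2 KO 2 (adjusted p = 0.152 and 0.12). Its rise under the DKO label was from 1.5 and 1.75 to 17.1 and 13 CPM. Hspa1b fell from 12.1 and 17.2 CPM for Mll2 WT to 0.978 and 1.55 CPM in KO, while its rise under the DKO label, from 4.03 and 3.79 to 7.36 and 7.64 CPM, was lost without H2A.Z control 1 or 2 or DKO 2 (adjusted p = 0.0508, 0.0804 and 0.0532). For both genes the difference itself was called in every repeat. Others that moved in these opposite directions and kept their class were Mei4, a gene of meiotic double-strand breaks (0.77 and -0.67), the imprinted gene Usp29 (0.97 and -1.10) and Zfp445, whose zinc finger product helps keep imprints (1.20 and -0.91).

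Genes that fell under the DKO label and rose in Mll2 KO were fewer, 116 against 284, with a median difference of -1.95 against 1.44 in the other direction. Satl1 (chromosome X, 112384305 to 112406779), an acetyltransferase-like gene, measured 21.6 and 15 CPM in the H2A.Z controls, 6.08 and 6.03 CPM under the DKO label, 11.4 and 12.3 CPM for Mll2 WT and 38 and 30.7 CPM for Mll2 KO. The mutants did not overlap their controls, and the effects of -1.59 ± 0.20 and 1.54 ± 0.18 were nearly mirror images (difference -3.13 ± 0.27, adjusted p = 1.62e-06). Rpusd1, which encodes a protein with a pseudouridine synthase domain, measured 5.79 and 6.26 CPM in the H2A.Z controls, 2.53 and 1.23 CPM under the DKO label, 5.22 and 5.77 CPM for Mll2 WT and 11 and 13.2 CPM for Mll2 KO (difference -2.81 ± 0.37, adjusted p = 9.13e-05). Kcnmb2, a subunit gene of calcium-activated potassium channels, Ldb2, which encodes a LIM domain-binding protein, and Rsf1, a chromatin remodelling gene, had differences of -3.40 ± 0.32, -2.80 ± 0.29 and -2.70 ± 0.29. Their falls under the DKO label were called in every repeat. Their rises in Mll2 KO, where KO and WT libraries did not overlap, were not called in every repeat. The rise of Kcnmb2 was lost without Mll2 WT 1 or 2 (adjusted p = 0.0618 and 0.0641) and that of Ldb2 without Mll2 WT 2 (adjusted p = 0.104). The rise of Rsf1 was lost without either H2A.Z control, either Mll2 WT library or Mll2 KO 2 (adjusted p from 0.0505 to 0.202).

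Among genes changed in the H2A.Z line alone, those that rose did so from low control levels in the largest cases. Trim6 (chromosome 7, 104218795 to 104235152), a ubiquitin ligase gene, measured 0.31 and 0.638 CPM in the H2A.Z controls, 11.3 and 8.73 CPM under the DKO label, 2.84 and 0.989 CPM for Mll2 WT and 1.21 and 1.51 CPM for Mll2 KO. The Mll2 groups overlapped and the libraries labelled DKO stood above all others (difference 4.83 ± 0.62, adjusted p = 7.9e-05). Hmgn3, a gene of nucleosome-binding HMGN proteins, measured 6.05 and 7.13 CPM in the H2A.Z controls, 117 and 122 CPM under the DKO label, 6.71 and 4.42 CPM for Mll2 WT and 5.63 and 9.21 CPM for Mll2 KO. It rose 18.1-fold under the DKO label, and the difference of 3.76 ± 0.31 (adjusted p = 1.37e-06) was kept in every repeat. Its Mll2 line effect over all libraries was 0.41 ± 0.22. Without Mll2 KO 1, where Mll2 KO 2 stood alone, a rise was called there too. Prrx1, a homeobox gene of mesenchyme, measured 0.569 and 0.159 CPM in the H2A.Z controls, 15 and 14 CPM under the DKO label, 0.463 and 0.627 CPM for Mll2 WT and 0.843 and 1.51 CPM for Mll2 KO (difference 4.28 ± 0.62, adjusted p = 0.000204). Without H2A.Z control 1, H2A.Z control 2 or Mll2 KO 1 its Mll2 line effect of 1.11 was called as well (adjusted p = 0.0411, 0.0405 and 0.00603). Zscan4c, of a near-identical gene family marking the 2-cell embryo, had a difference of 3.90 ± 0.44 (adjusted p = 2.41e-05), and without Mll2 KO 2 its effect of 0.43 in the Mll2 line was called (adjusted p = 0.0231). Reads shared among Zscan4 copies cannot be assigned with certainty.

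The largest losses in the H2A.Z line alone left little of the transcript under the DKO label. Zc4h2 (chromosome X, 95639187 to 95658509), a zinc finger gene, measured 12 and 10.3 CPM in the H2A.Z controls, 0.266 and 0.285 CPM under the DKO label, 4.99 and 7.52 CPM for Mll2 WT and 4.01 and 5.58 CPM for Mll2 KO. It fell 39.8-fold under the DKO label while the Mll2 groups overlapped (difference -4.93 ± 0.46, adjusted p = 3.21e-06). Nicn1 (chromosome 9, 108290443 to 108296498), a subunit gene of tubulin polyglutamylase, measured 15.5 and 15.6 CPM in the H2A.Z controls, 0.665 and 1.85 CPM under the DKO label, 11.7 and 12.4 CPM for Mll2 WT and 10.3 and 12.2 CPM for Mll2 KO. Its effect in the Mll2 line was -0.10 ± 0.23 and the difference -3.54 ± 0.38 (adjusted p = 1.42e-05). Zfp85, a zinc finger gene, measured 6.93 and 6.3 CPM in the H2A.Z controls, 0.665 and 0.522 CPM under the DKO label, 8.69 and 8.87 CPM for Mll2 WT and 11.3 and 12.2 CPM for Mll2 KO (difference -3.88 ± 0.33, adjusted p = 1.55e-06), and with library size alone its Mll2 line effect of 0.42 was called. Speer4a, of the SPEER family of testis genes, had a difference of -3.46 ± 0.50 (adjusted p = 0.000244), and without Mll2 KO 2 it was called higher in the Mll2 line (adjusted p = 0.000657). Over the 517 genes of this kind, the median of the group means was 14.6 CPM in the H2A.Z controls, 6.16 CPM under the DKO label, 14.9 CPM for Mll2 WT and 15.1 CPM in Mll2 KO.

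Losses in the Mll2 line alone were the most numerous of the single-line classes (861 genes) and included abundant germ cell transcripts. Tex15 (chromosome 8, 33516689 to 33592503), a germ cell gene needed for meiosis and transposon silencing in the male, measured 228 and 186 CPM in the H2A.Z controls, 188 and 167 CPM under the DKO label, 191 and 249 CPM for Mll2 WT and 9.81 and 6.39 CPM for Mll2 KO. All 6 other libraries were far above both Mll2 KO libraries, in which Tex15 fell 27.1-fold (difference 4.54 ± 0.26, adjusted p = 2.23e-07). Zfp770 (chromosome 2, 114193456 to 114201432), a zinc finger gene, measured 21.3 and 22.7 CPM in the H2A.Z controls, 18.5 and 21.9 CPM under the DKO label, 24.5 and 23.1 CPM for Mll2 WT and 1.35 and 1.24 CPM for Mll2 KO (difference 4.07 ± 0.25, adjusted p = 1.23e-07). Tmem47 (chromosome X, 81070644 to 81097875), which encodes a membrane protein of cell junctions, measured 19.4 and 17.1 CPM in the H2A.Z controls, 16.1 and 22.2 CPM under the DKO label, 21.5 and 28.6 CPM for Mll2 WT and 0.607 and 0.975 CPM for Mll2 KO (difference 5.05 ± 0.34, adjusted p = 1.74e-07). In each of these genes the H2A.Z groups differed by less than the test could call, with effects of -0.22 ± 0.17, -0.13 ± 0.16 and 0.07 ± 0.20. Gli3, a transcription factor gene of Hedgehog signalling, fell from 19.8 and 39.6 to 0.438 and 0.773 CPM in the Mll2 line, but its difference of 6.14 ± 0.61 was lost without Mll2 KO 1 (adjusted p = 0.0534). Over the 861 genes the median of the group means was 37.4, 39.3 and 37.8 CPM in the H2A.Z control, DKO-labelled and Mll2 WT groups and 18.8 CPM in Mll2 KO.

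Gains in the Mll2 line alone (347 genes) were led by Ntf3 (chromosome 6, 126101412 to 126166772), the gene of the growth factor neurotrophin-3. It measured 1.29 and 3.43 CPM in the H2A.Z controls, 2.44 and 2.66 CPM under the DKO label, 0.264 and 0.594 CPM for Mll2 WT and 10.8 and 9.21 CPM for Mll2 KO. Here the controls of the lines did not match: Mll2 WT lay below both H2A.Z groups and Mll2 KO above them (difference -4.45 ± 0.57, adjusted p = 7.02e-05). Cdc5l, a spliceosome gene, showed the same order, with 4.91 and 4.18 CPM in the H2A.Z controls, 6.88 and 5.36 CPM under the DKO label, 0.926 and 1.32 CPM for Mll2 WT and 10.8 and 16.1 CPM for Mll2 KO (difference -3.14 ± 0.38, adjusted p = 4.26e-05). The other genes the rule named here did not hold. Cth, which encodes cystathionine gamma-lyase, measured 31.8 and 29.9 CPM for Mll2 WT and 92.7 and 94.8 CPM for Mll2 KO, and its difference (-1.78 ± 0.33) was lost without Mll2 KO 1 or 2 (adjusted p = 0.111 and 0.123). The difference of Bc1, a noncoding RNA gene (-1.94 ± 0.60, adjusted p = 0.0427), was lost without either H2A.Z control, DKO 1 or either Mll2 WT library, with adjusted p from 0.0624 to 0.166. Without Mll2 KO 1 Bc1 was called in opposite directions and without Mll2 KO 2 in the H2A.Z line alone.

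**Figure D2:**
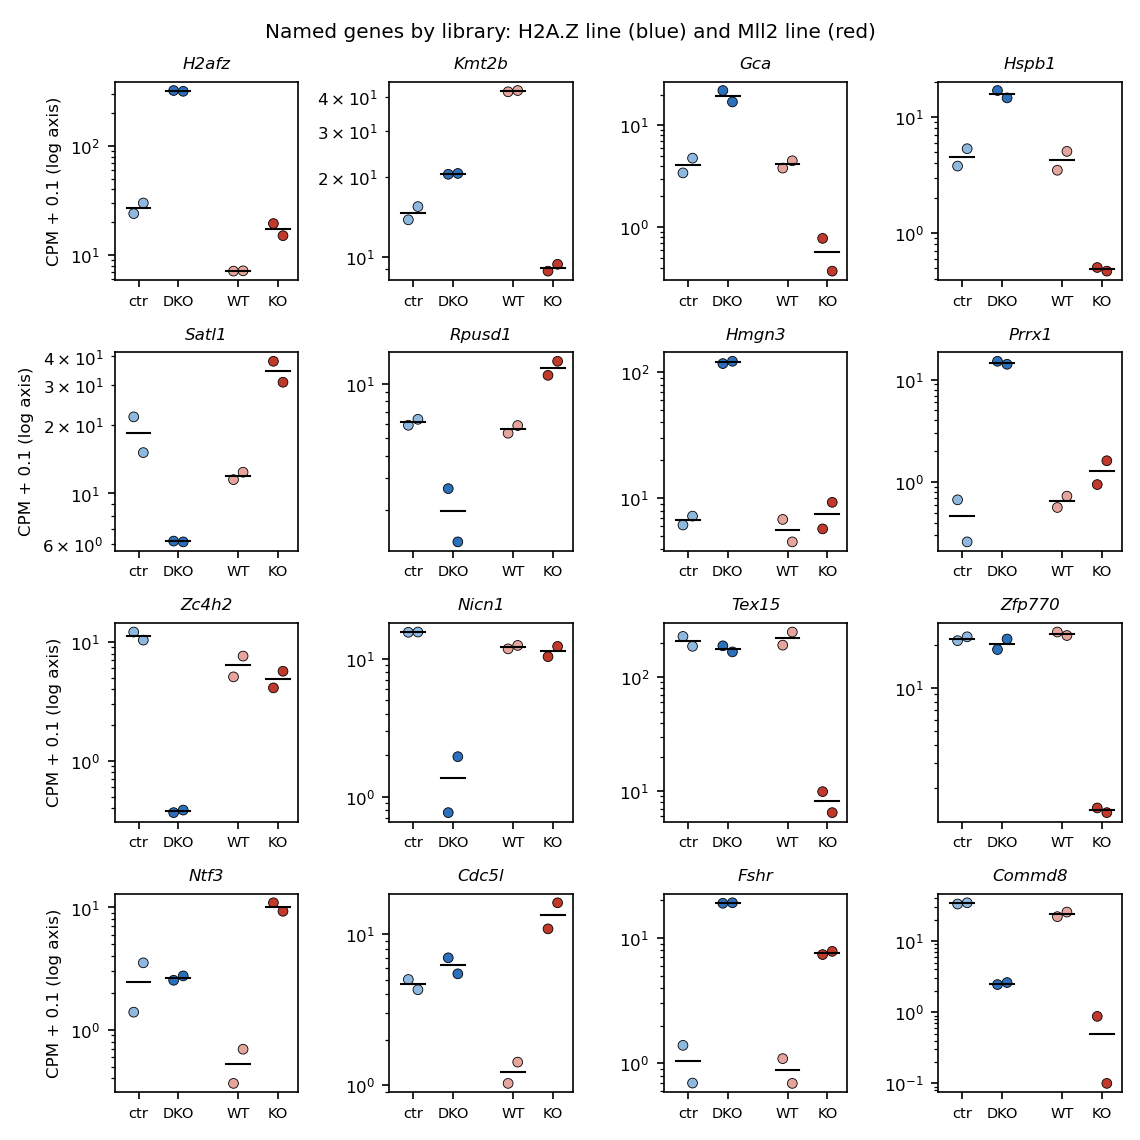
Level of 16 named genes in every library (points, 2 per group; bars are group means), in CPM plus 0.1 on a log axis; ctr and DKO are the H2A.Z line, WT and KO the Mll2 line. Gca and Hspb1 lie above their control under the DKO label and below it in Mll2 KO, Satl1 and Rpusd1 the reverse, Zc4h2 and Nicn1 drop under the DKO label alone, and Tex15 and Zfp770 drop in Mll2 KO alone.

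Where both lines moved in the same direction by unequal amounts, 127 of the 250 genes fell more in Mll2 KO, 56 fell more under the DKO label, 41 rose more under the DKO label and 26 rose more in Mll2 KO. Krt79 (chromosome 15, 101929332 to 101940324), a keratin gene, measured 0.724 and 1.39 CPM in the H2A.Z controls, 6.17 and 5.79 CPM under the DKO label, 1.32 and 1.15 CPM for Mll2 WT and 32.8 and 46.7 CPM for Mll2 KO. Both mutants lay above their controls and Mll2 KO lay highest (difference -2.55 ± 0.41, adjusted p = 0.000505). Ptgds, the gene of prostaglandin D2 synthase, also rose more in Mll2 KO, to 41.8 and 50.7 CPM from 4.07 and 4.72 CPM, than under the DKO label, to 11 and 8.88 CPM from 5.43 and 4.66 CPM (difference -2.41 ± 0.27, adjusted p = 1.79e-05). Cldn34d, a claudin-like gene, had a difference of -2.25 ± 0.43, but its rise under the DKO label (1.07 ± 0.29) was lost without either H2A.Z control, DKO 2 or either Mll2 KO library (adjusted p from 0.0548 to 0.126).

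Greater gains under the DKO label were led by Pramef25, of the PRAME family, Zscan4d and Ddit4l, a stress-induced inhibitor gene of mTOR signalling, with differences of 3.18 ± 0.65, 3.07 ± 0.46 and 2.64 ± 0.38. Zscan4d measured 9.1 and 6.69 CPM in the H2A.Z controls, 138 and 121 CPM under the DKO label, 8.93 and 5.44 CPM for Mll2 WT and 18.6 and 9.58 CPM for Mll2 KO. Their smaller rises in Mll2 KO were not stable. That of Ddit4l was lost without Mll2 WT 2 (adjusted p = 0.0717), that of Zscan4d without DKO 2, Mll2 WT 2 or Mll2 KO 1 (adjusted p = 0.0503, 0.205 and 0.253), and that of Pramef25 without any library but Mll2 KO 1 (adjusted p from 0.0588 to 0.321). The differences of all 3 genes were called in every repeat.

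Deeper losses in Mll2 KO were led by Ccdc172, a coiled-coil gene, with 62.5 and 60.1 CPM in the H2A.Z controls, 47.2 and 42.2 CPM under the DKO label, 46.2 and 43.6 CPM for Mll2 WT and 0.708 and 0.975 CPM for Mll2 KO. The Mll2 line lost the transcript almost wholly and the H2A.Z line lost little of it (difference 5.28 ± 0.23, adjusted p = 2.25e-09). That smaller fall was lost without either H2A.Z control or either library labelled DKO (adjusted p from 0.0518 to 0.144). Hnrnph2 (chromosome X, 134601179 to 134607060), an RNA-binding protein gene, measured 9.98 and 9.17 CPM in the H2A.Z controls, 1.46 and 1.8 CPM under the DKO label, 14.1 and 12.3 CPM for Mll2 WT and 0.135 and 0 CPM for Mll2 KO, where 4 counts remained over both libraries. Zfp512, a zinc finger gene, measured 5.27 and 4.74 CPM in the H2A.Z controls, 1.51 and 1.57 CPM under the DKO label, 10 and 10.6 CPM for Mll2 WT and 0.135 and 0.0672 CPM for Mll2 KO (difference 4.91 ± 0.49, adjusted p = 5.55e-06). Deeper losses under the DKO label were led by Tmem205, a membrane protein gene, with 10.3 and 10.7 CPM in the H2A.Z controls, 0.532 and 1.38 CPM under the DKO label, 7.6 and 6.89 CPM for Mll2 WT and 2.76 and 4.07 CPM for Mll2 KO (difference -2.38 ± 0.43, adjusted p = 0.00136). Aamdc and the myosin gene Myo7a had differences of -2.19 ± 0.32 and -2.07 ± 0.37, and their smaller falls in Mll2 KO were lost without Mll2 WT 1 (adjusted p = 0.0719 and 0.125).

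Among shared gains at 10 CPM or more, Fshr came first by the smaller of its 2 effects. It is the receptor gene of follicle-stimulating hormone, and it measured 1.29 and 0.598 CPM in the H2A.Z controls, 18.7 and 18.9 CPM under the DKO label, 0.992 and 0.594 CPM for Mll2 WT and 7.25 and 7.7 CPM for Mll2 KO. It rose in both lines, 20.5-fold and 9.38-fold, and the difference of 1.13 had a 95% interval from 0.18 to 2.07 (adjusted p = 0.0882, and 0.0316 without H2A.Z control 1). Fshr is also a granulosa cell marker. The sums of that list stood higher in both mutants, as given above, and its part in the result was not tested. Of its 10 tested members, Fshr, Krt8 and Nr5a2 rose in both lines, while Cyp19a1, the aromatase gene, fell in Mll2 KO alone (-0.78). Gja1, a gap junction gene, was called in opposite directions (-3.14 and 2.60) at no more than 1.87 CPM in any library, with overlap of the H2A.Z groups. The class of Gja1 did not hold without any library but H2A.Z control 1, and its difference was lost without H2A.Z control 2. The median difference of the 10 was -0.57 relative to that of all genes. With each line fitted alone 5 were tested, with a median -0.49 relative to all genes. A marker near silence elsewhere passed the filter only through its high group, so neither these counts nor the median describe all 14 listed markers. Fam174b, a membrane protein gene, measured 1.4 and 2.67 CPM in the H2A.Z controls, 13.2 and 12.4 CPM under the DKO label, 1.22 and 0.824 CPM for Mll2 WT and 3.81 and 4.81 CPM for Mll2 KO, with a difference of 0.56 (95% interval -0.35 to 1.47, adjusted p = 0.395). Usp17lb, a deubiquitinase gene of a near-identical family, and the chemokine gene Ccl2 rose in both lines by 4.47 and 3.10 and by 3.62 and 2.65 on the log2 scale. Without Mll2 KO 1 both of their differences were called, as larger rises under the DKO label (adjusted p = 0.00749 and 2.15e-05).

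Shared losses were led by Commd8, which encodes a COMM domain protein, with 33.1 and 34.5 CPM in the H2A.Z controls, 2.35 and 2.52 CPM under the DKO label, 22 and 25.5 CPM for Mll2 WT and 0.775 and 0 CPM for Mll2 KO. Its effects were -3.80 ± 0.44 and -5.92 ± 0.55, and the difference of 2.13 had a 95% interval from 0.41 to 3.85 (adjusted p = 0.0836), which was called without Mll2 KO 1 or 2 (adjusted p = 9.06e-07 and 0.0247). The zinc finger gene Zfp959 fell by 2.99 and 4.48, the sugar phosphate mutase gene Pgm2 by 2.37 and 3.40, and the X-linked lymphocyte-regulated gene Xlr4a by 2.11 and 3.12. Their differences were called without DKO 1 or Mll2 WT 1 for Zfp959 (adjusted p = 0.0108 and 0.0338), without DKO 2 for Pgm2 (adjusted p = 0.0189) and without Mll2 KO 1 for Xlr4a (adjusted p = 0.0174). All 4 genes thus fell in both lines, and these libraries do not show that they fell by the same amount. Genes with a called difference and no effect called in either line, such as the noncoding RNA gene Malat1 (difference -1.97 ± 0.50, adjusted p = 0.0306) and the adhesion receptor gene Adgrv1 (1.13 ± 0.35, adjusted p = 0.0321), did not hold. None of the 192 kept that class in all 11 repeats. The difference of Malat1 was lost without DKO 1, either Mll2 WT or either Mll2 KO library (adjusted p from 0.0516 to 0.229). That of Adgrv1 was lost without any library but Mll2 KO 1 (adjusted p from 0.0578 to 0.148).

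Groups of related genes were then counted in 42 lists, beside 12.9% of all tested genes with a difference called higher and 6.68% called lower. Among genes of histone H3 lysine 4 methylation, 3 of 28 had a difference called higher and 3 lower, and with library size alone 1 and 4. Besides Kmt2b, they were Dpy30 and Ash2l, subunits shared by the methyltransferase complexes, Men1, a subunit of the MLL1 and MLL2 complexes, Kmt2a and Prdm9, and of the 6 only Kmt2b kept its call in every repeat. Of the 26 genes whose products deposit or remove H2A.Z, 3 had a difference called higher and 1 lower, or 1 and 4 with library size alone. The member that kept its call in every repeat was Anp32e, the chaperone gene that removes H2A.Z, which measured 6.57 and 5.26 CPM in the H2A.Z controls, 6.96 and 6.31 CPM under the DKO label, 14.1 and 13 CPM for Mll2 WT and 4.62 and 6.12 CPM for Mll2 KO. It fell in Mll2 KO alone (difference 1.51 ± 0.30, adjusted p = 0.00234). The other 3, Meaf6, Epc2 and Znhit1, lost their call in at least 1 repeat.

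Histone variant and linker histone genes had 6 of 15 called higher and 1 lower, or 4 and 2 with library size alone, and a median difference 0.34 above that of all genes. They include the targeted H2afz and H2afv, and besides these only H2afy2 kept its call in every repeat. H2afy2, a macroH2A gene, fell under the DKO label, from 1.55 and 2.23 to 0.177 and 0.0949 CPM, against 1.75 and 2.97 CPM for Mll2 WT and 1.35 and 1.48 CPM for Mll2 KO (difference -3.01 ± 0.68, adjusted p = 0.00605). Of the others, Cenpa, the centromeric histone gene, and H3f3b, which encodes the replacement histone H3.3, had differences of 0.73 ± 0.15 and 0.54 ± 0.16. That of Cenpa was lost without Mll2 WT 2 (adjusted p = 0.0622) and that of H3f3b without any library but Mll2 KO 1 or 2 (adjusted p from 0.068 to 0.136). Of 31 Polycomb genes 7 were called higher and 0 lower, but 0 and 2 with library size alone, and no member kept its call in every repeat. Genes of DNA and H3 lysine 9 methylation had 5 of 27 called higher and 0 lower, or 2 and 1 with library size alone. Mbd1, a methyl-CpG-binding protein gene, fell more in Mll2 KO, from 7.24 and 7.19 to 0.0674 and 0.101 CPM, than under the DKO label, from 4.45 and 5.66 to 0.976 and 1.04 CPM (difference 4.02 ± 0.55, adjusted p = 0.000125).

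Of 32 tested genes of cohesin, synapsis and recombination, 9 fell and 3 rose in Mll2 KO, beside 16.2% and 14.4% of all tested genes. With the DKO label 1 fell and 6 rose, beside 11.5% and 19.4%. The difference was called higher for 7 and lower for 1, or 6 and 1 with library size alone, and its median was 0.20 above all genes. Tex12, of the central element of the synaptonemal complex, measured 48.4 and 46.7 CPM in the H2A.Z controls, 51.9 and 54 CPM under the DKO label, 60.8 and 81.9 CPM for Mll2 WT and 15.5 and 10.6 CPM for Mll2 KO. Sycp3, of its lateral elements, measured 51.4 and 47.4 CPM in the H2A.Z controls, 48.8 and 51.7 CPM under the DKO label, 38.4 and 41.7 CPM for Mll2 WT and 4.15 and 9.01 CPM for Mll2 KO. In both genes the 4 H2A.Z libraries lay between 46.7 and 54 CPM and the Mll2 KO libraries stood lowest, and the differences were 2.61 ± 0.24 and 2.63 ± 0.34 (adjusted p = 2.95e-06 and 0.000249). Sycp2 moved the other way, with a rise in Mll2 KO of 0.58 and a difference of -0.84 ± 0.17 (adjusted p = 0.0032).

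The anaphase-promoting complex (APC/C), which drives exit from each meiotic division, and the spindle checkpoint that restrains it had 14 of 30 genes with a called difference, 12 higher and 2 lower. The split was 4 and 3 with library size alone, and the median difference was 0.34 above all genes. In Mll2 KO 13 of the 30 were lower and 3 higher, beside 16.2% and 14.4% of all tested genes. With the DKO label 4 were lower and 4 higher, beside 11.5% and 19.4%. Of the 12 with a difference called higher, 7 fell in Mll2 KO alone, a class holding 5.11% of all tested genes. Among them Bub1b, a checkpoint kinase gene, measured 545 and 503 CPM in the H2A.Z controls, 578 and 558 CPM under the DKO label, 1084 and 1086 CPM for Mll2 WT and 695 and 738 CPM for Mll2 KO (difference 0.72 ± 0.14, adjusted p = 0.0024). The subunit genes Anapc16 and Cdc16 fell in Mll2 KO by 0.66 and 1.29. In the H2A.Z line alone the subunit gene Cdc26 fell, from 52.3 and 53.1 to 20.7 and 20.9 CPM, against 36.4 and 34.2 CPM for Mll2 WT and 41.8 and 34 CPM for Mll2 KO (difference -1.44 ± 0.19, adjusted p = 8.1e-05). Spindle and kinetochore genes had 4 of 37 called higher and 3 lower, and 5 shared losses (beside 3.31% of all tested genes). Aurkb, the kinase gene of the chromosomal passenger complex, fell under the DKO label alone, from 13 and 15.5 to 4.61 and 3.28 CPM, against 21.5 and 20.9 CPM for Mll2 WT and 20 and 20.6 CPM for Mll2 KO (difference -1.79 ± 0.26, adjusted p = 0.000208). Among 31 genes of meiotic resumption 2 were called higher and 0 lower, the cyclin-dependent kinase gene Cdk1 and Prkar2b, and neither kept its call in every repeat.

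Of 28 genes of maternal mRNA storage and decay, 8 had a difference called higher and 1 lower, or 2 and 3 with library size alone. Pabpn1l, which encodes a poly(A)-binding protein of the oocyte, fell under the DKO label from 678 and 554 to 299.9 and 277 CPM, against 356 and 356 CPM for Mll2 WT and 478 and 374 CPM for Mll2 KO (difference -1.35 ± 0.18, adjusted p = 9.22e-05, with a rise in the Mll2 line also called without Mll2 KO 2, adjusted p = 0.00472). Cnot7, a deadenylase gene, fell in Mll2 KO alone, from 558 and 590 to 315 and 324 CPM, against 511 and 415 CPM in the H2A.Z controls and 450 and 434 CPM under the DKO label (difference 0.78 ± 0.16, adjusted p = 0.00263). Genes of the subcortical maternal complex and maternal effect had 5 of 21 called higher and 0 lower, or 1 and 2 with library size alone. Of 28 small RNA pathway genes 6 were called higher and 0 lower, or 2 and 1 with library size alone. Mael, a piRNA pathway gene, fell in Mll2 KO from 106 and 110 to 36.8 and 28.5 CPM, against 115 and 99.5 CPM in the H2A.Z controls and 87.6 and 86.4 CPM under the DKO label (difference 1.42 ± 0.18, adjusted p = 5.81e-05). Without Mll2 WT 2, Mll2 KO 1 or Mll2 KO 2 a smaller fall of Mael under the DKO label was also called (adjusted p = 0.0268, 0.000311 and 0.000307).

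The Xlr genes, an X-linked multicopy family with meiotic members, differed between the lines in most members, of which 7 of 9 had a difference called higher and 0 lower, or 5 and 0 with library size alone, and the median was 3.22 above all genes. Of the 7, 5 fell in both lines and more in Mll2 KO, 2 fell in Mll2 KO alone, and 5 kept the called difference in every repeat. Xlr3c measured 26.9 and 25.7 CPM in the H2A.Z controls, 9.45 and 12.4 CPM under the DKO label, 14.4 and 22.8 CPM for Mll2 WT and 0.472 and 0.37 CPM for Mll2 KO, a fall in both lines that was larger in Mll2 KO (difference 4.19 ± 0.38, adjusted p = 2.83e-06). Xlr3a was the exception to the losses, with 184 and 162 CPM in the H2A.Z controls, 166 and 175 CPM under the DKO label, 100.4 and 98.4 CPM for Mll2 WT and 96.4 and 85 CPM for Mll2 KO, and no call. Copies of the family are close in sequence, so the division of reads among them is uncertain. The genes of the 2-cell stage had 6 of 19 tested called higher and 1 lower, or 5 and 2 with library size alone. Of the 19, 5 were shared gains, beside 5.47% of all tested genes. Besides the Zscan4 genes and Pramef25 above, Dppa4, a chromatin gene of the early embryo, fell more in Mll2 KO (difference 2.81 ± 0.33, adjusted p = 3.45e-05). The fall of Dppa4 under the DKO label was lost without either H2A.Z control or either library labelled DKO (adjusted p from 0.0584 to 0.189).

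Developmental regulators, mostly silent in oocytes, had 28 of 66 tested. Of these, 7 had a difference called higher and 0 lower, or 6 and 0 with library size alone, with a median 0.52 above all genes. Of the 28, 12 increased and 2 decreased with the DKO label (19.4% and 11.5% of all tested genes). In Mll2 KO 2 increased and 5 decreased, beside all-gene shares of 14.4% and 16.2%. A gene passed the filter only if some group held enough counts, so a gene near silence elsewhere was tested only through its high group. Such a gene tends to look changed, so neither these counts nor the median describe all 66. With each line fitted alone, 17 were tested and the median lay 0.23 above all genes. Pax6 measured 1.09 and 0.956 CPM in the H2A.Z controls, 4.48 and 4.98 CPM under the DKO label, 1.16 and 1.02 CPM for Mll2 WT and 1.38 and 1.28 CPM for Mll2 KO (difference 1.93 ± 0.45, adjusted p = 0.00717). Hoxd13 measured 0.724 and 0.598 CPM in the H2A.Z controls, 1.95 and 2.18 CPM under the DKO label, 0.926 and 1.06 CPM for Mll2 WT and 0.27 and 0.37 CPM for Mll2 KO (difference 3.26 ± 0.61, adjusted p = 0.00171). Its rise was lost without H2A.Z control 2 (adjusted p = 0.08) and its fall without Mll2 WT 2 or Mll2 KO 1 (adjusted p = 0.0777 and 0.0555). Imprinted genes had 3 of 32 called higher and 2 lower. Cdkn1c, a cyclin-dependent kinase inhibitor gene, measured 4.03 and 5.62 CPM in the H2A.Z controls, 2.35 and 3.13 CPM under the DKO label, 9.98 and 9.73 CPM for Mll2 WT and 27 and 27.9 CPM for Mll2 KO (difference -2.31 ± 0.29, adjusted p = 7.02e-05). Leaving out H2A.Z control 2 or DKO 1 removed the call of its fall under the DKO label (adjusted p = 0.192 and 0.143).

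Of 18 tested heat shock genes, 10 were lower and 1 higher in Mll2 KO, beside 16.2% and 14.4% of all tested genes. With the DKO label 1 was lower and 5 higher, beside 11.5% and 19.4%. Of these genes, 5 had a difference called higher and 0 lower, or 4 and 0 with library size alone, with a median 0.24 above all genes. Besides Hspb1 and Hspa1b these were Dnajb4 and Stip1, co-chaperone genes, and Hsp90aa1, the inducible HSP90 gene, and all but Stip1 kept the call in every repeat. Dnajb4 measured 594 and 529 CPM in the H2A.Z controls, 664 and 670 CPM under the DKO label, 596 and 718 CPM for Mll2 WT and 330 and 296 CPM for Mll2 KO (difference 1.32 ± 0.16, adjusted p = 4.85e-05). Genes of the integrated stress and unfolded protein responses had 2 of 29 called higher and 3 lower. Ddit3, which encodes the stress factor CHOP, measured 124 and 133 CPM in the H2A.Z controls, 152 and 165 CPM under the DKO label, 105 and 104 CPM for Mll2 WT and 220 and 204 CPM for Mll2 KO, so that the larger rise was in Mll2 KO (difference -0.72 ± 0.14, adjusted p = 0.00231). The smaller rise under the DKO label was lost when any of the 8 libraries was left out (adjusted p from 0.0603 to 0.265). Chemokine, interferon and RNA-sensing genes had 0 of 17 called in either direction by edgeR and 1 called by limma voom. Of the 17, 4 were shared changes, beside 8.77% of all tested genes.

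Cytosolic ribosomal protein genes often rose in both lines. Of 84 tested, 52 were higher and 0 lower with the DKO label (19.4% and 11.5% of all genes). In Mll2 KO 45 were higher and 2 lower (14.4% and 16.2%), and 35 (beside 5.47% of all genes) were shared gains. The median effects of 0.41 and 0.35 lay above the 0.12 and 0.02 of all genes, and the median difference lay 0.06 below that of all genes. A difference was called higher for 7 and lower for 1, or 1 and 6 with library size alone. Rpl17 was the exception that kept its difference in every repeat, with 456 and 418 CPM in the H2A.Z controls, 381 and 384 CPM under the DKO label, 295 and 280 CPM for Mll2 WT and 148 and 126 CPM for Mll2 KO (0.88 ± 0.15, adjusted p = 0.0008). Without Mll2 WT 2, Mll2 KO 1 or Mll2 KO 2 a small fall of Rpl17 under the DKO label was called too (adjusted p = 0.0411, 0.00108 and 0.00109). Ribosomal protein genes have many processed copies, so their counts can be divided among them.

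Mitochondrial genes split. Of 77 mitochondrial ribosomal protein genes 13 were called higher and 10 lower, or 7 and 17 with library size alone. Mrps10 measured 22.5 and 23.2 CPM in the H2A.Z controls, 29.7 and 24.7 CPM under the DKO label, 17 and 18.3 CPM for Mll2 WT and 2.39 and 1.88 CPM for Mll2 KO, a loss in the Mll2 line alone (difference 3.29 ± 0.25, adjusted p = 4.78e-07). Mrpl50 fell under the DKO label, from 55.9 and 47.2 to 25.5 and 32.5 CPM, against 34.4 and 36.2 CPM for Mll2 WT and 45.9 and 41.9 CPM for Mll2 KO (difference -1.14 ± 0.20, adjusted p = 0.001). Nuclear-encoded oxidative phosphorylation genes had 15 of 81 called higher and 4 lower, and 4 and 11 with library size alone, so their direction depended on the scaling. Proteasome subunits had 11 of 38 called higher and 2 lower, and 0 and 3 with library size alone, and no member kept its call in every repeat. Atp5g3, an ATP synthase subunit gene, kept its difference (1.96 ± 0.16, adjusted p = 1.23e-06), through a fall in Mll2 KO from 54.1 and 58.7 to 20.3 and 18.2 CPM. Its rise under the DKO label, from 66.9 and 68.6 to 91.6 and 87.9 CPM, was lost without either H2A.Z control, either library labelled DKO or Mll2 WT 2 (adjusted p from 0.0604 to 0.11). Of 22 cholesterol synthesis genes 1 was called higher and 4 lower. Fdps, the farnesyl diphosphate synthase gene, rose in Mll2 KO alone, from 16 and 18 to 42.1 and 31.3 CPM, against 34.1 and 39.1 CPM in the H2A.Z controls and 39.5 and 40.1 CPM under the DKO label (difference -0.99 ± 0.22, adjusted p = 0.00479).

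Large families of transcriptional repressors and epithelial genes also divided. The numbered Zfp zinc finger genes fell more often than they rose in each line, 93 and 25 of 286 under the DKO label, beside 11.5% and 19.4% of all tested genes. In Mll2 KO the numbers were 101 and 39, beside 16.2% and 14.4%. The fallen genes were only partly the same ones. Of the 286, 43 were shared losses, beside 3.31% of all tested genes. In the H2A.Z line alone 17 fell, beside 3.07%, and in the Mll2 line alone 12 fell, beside 5.11%. The count for the Mll2 line alone was thus not above its all-gene share. Zfp74 measured 12.2 and 11.7 CPM in the H2A.Z controls, 1.02 and 1.8 CPM under the DKO label, 20.2 and 18.5 CPM for Mll2 WT and 20.2 and 22 CPM for Mll2 KO (difference -3.21 ± 0.30, adjusted p = 3.21e-06), opposite in line to Zfp770. Trim genes had 13 of 46 called higher and 4 lower, or 5 and 6 with library size alone. Keratins had 7 of 26 tested called higher and 1 lower, or 6 and 2 with library size alone. Of the 26, 5 were shared gains, beside 5.47% of all tested genes. Krt25 rose under the DKO label from 15.8 and 22.4 to 82.5 and 67.1 CPM, against 12.7 and 12 CPM for Mll2 WT and 11.6 and 12.4 CPM for Mll2 KO (difference 2.01 ± 0.24, adjusted p = 3.81e-05), whereas Krt79 rose more in Mll2 KO. In the remaining lists the counts higher and lower were 3 and 0 of 12 zona and secreted factor genes, 2 and 0 of 17 oocyte transcription factor genes, 4 and 1 of 25 DNA damage and p53 genes, 4 and 4 of 29 metal genes and 3 and 2 of 24 glycolysis genes. They were 2 and 1 of 24 core histone genes, 2 and 0 of 13 Nlrp genes, 2 and 0 of 6 Obox genes and 2 and 1 of 8 PRAME and Oog genes, in families whose copies can share reads.

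**Figure D3:**
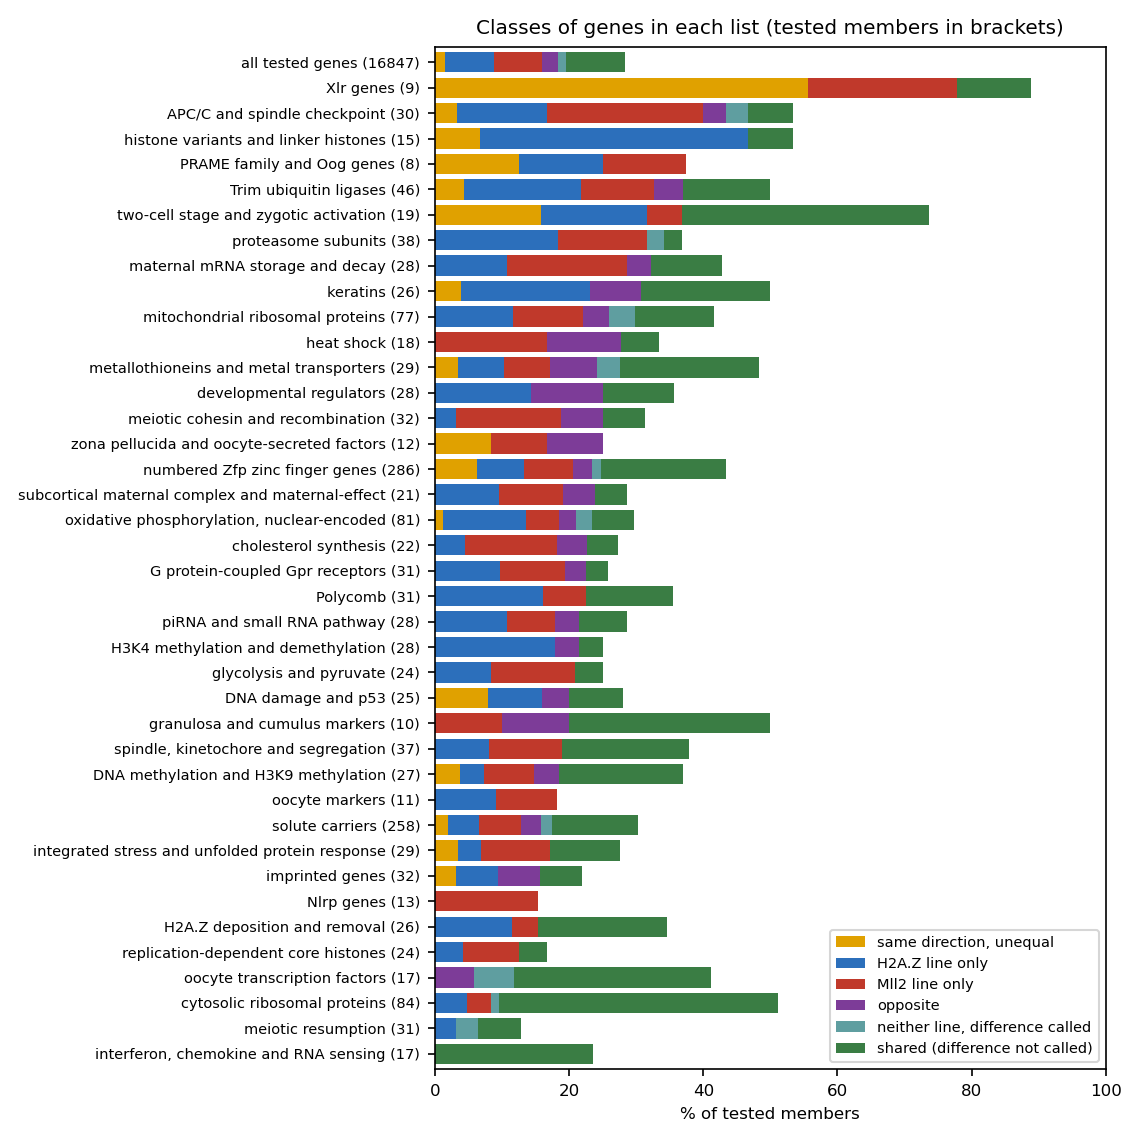
Share of the tested members of each list in each class, in percent, for lists with at least 8 tested members, with all 16847 tested genes at the top; the remainder to 100% had no call or a change in 1 line with no called difference. Xlr genes (7 of 9), the APC/C (14 of 30) and histone variants (7 of 15) have high shares that differ between lines, and 35 of 84 ribosomal protein genes are shared gains.

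Position set the X chromosome apart in the counts. Of 528 tested X-linked genes, 162 had a called difference (30.7%, beside 19.5% of all tested genes), and 70 changed in the Mll2 line alone (13.3% beside 7.17%), 54 lower and 16 higher. In Mll2 KO 150 X-linked genes were lower (28.4% beside 16.2%), and under the DKO label 79 (15.0% beside 11.5%). In each of the 11 repeats the X-linked share with a called difference stood above that of all genes, from 20.3% to 35.4% against 9.24% to 26.3%. Zc4h2, Satl1, Tmem47, Hnrnph2 and the Xlr genes above are X-linked. Among protein-coding genes that fell in both lines and more in Mll2 KO, 15.6% of 122 were on the X chromosome, compared with 3.43% of all 13444 tested. The share was 6.55% of 748 genes lower in the Mll2 line alone and 3.72% of 457 lower in the H2A.Z line alone. For opposite genes it was 7.41% of 243 higher under the DKO label and 8.08% of 99 lower under it. These are counts without a test, and the Xlr genes lie in clusters.

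**Figure D4:**
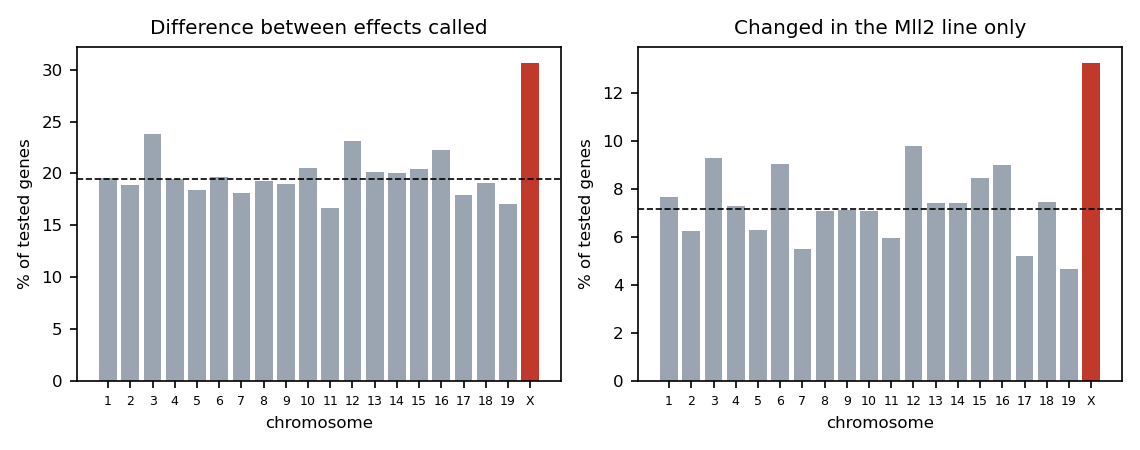
Percent of tested genes on each chromosome (bars; X in red) with a called difference between the effects (left) and with a change in the Mll2 line alone (right); dashed lines give all tested genes (19.5% and 7.17%). The X chromosome is highest in both panels, at 30.7% and 13.3%.

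Promoters of the classes differed modestly in CG content. Of 671 shared higher genes with a window, 83.8% held at least 10 CG in 300 bases, compared with 77.5% of all tested protein-coding genes with a window, and their median was 22 against 19. The median was 16 for shared lower genes and 16 for opposite genes of either kind, of which 67.2% (higher under the DKO label) and 68.8% (lower under it) held at least 10. Over all 27025 genes with a RefSeq window, tested or not, 44.4% held at least 10. The opposite genes were thus poorer in CG than the shared gains, as a description of these windows with no test.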

How the data were processed

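The deposited table holds whole-number counts for each gene symbol, without normalisation by the authors. The tools listed, per the submitters' processing notes, are RSEM 1.3.1, STAR 2.7.3 and Trim Galore 0.6.4, and the genome build is mm10. What each tool did, which annotation was used, whether counting was stranded and whether values were rounded is not given in the sources used here. Libraries were made with the SMART-Seq v4 and Nextera XT kits from 200 pg of cDNA, which amplify without molecular identifiers. Groups were those of the labels, with no library left out.

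Totals of 20309233 to 30087863 counts set the precision of each library. The fit used edgeR 4.0.16 (R 4.3.3; limma 3.58.1 and DESeq2 1.42.0 for alternatives): genes kept by filterByExpr (16847; 8787 symbols had 0 counts in every library), TMM scaling, 1 fit of 4 group means with robust quasi-likelihood tests (4 residual degrees of freedom, common dispersion 0.0152, a median of 11.8 prior degrees of freedom). The SE was derived from the F statistic. The members, gene lists and alternatives were chosen with earlier results of these data known. Named genes, without predicted or clone symbols, were the targeted genes, the largest differences of each class and called members of the lists. The class picks (5 opposite, 4 of 1 line, 4 shared, 3 unequal, 3 of neither line, each way) reached 10 CPM in their highest group. They also showed no overlap of mutant and control where a change is stated. Each of 42 lists gave up to 4 called members (any called member for the H3K4, H2A.Z deposition and histone variant lists). List members were held to neither the 10 CPM nor the overlap rule, and H2afy2, Hoxd13 and Mbd1 are among those below 10 CPM. Other members were added after their values were seen: Cdc16, Stip1, Sycp2, Krt8, Nr5a2, Xlr3a, Gja1 and Pax6. At the threshold, Usp45 lay just inside (log2 difference 0.69, adjusted p = 0.0499) and Park7 just outside (0.42, adjusted p = 0.0501). Positions and promoters came from RefSeq (GRCm38.p6), matched by symbol or unique synonym. On simulated data for 16419 genes, 76 of 100 differences of log2 1 and 100 of 100 of log2 2 were recovered, with 16 false calls. The simulated differences were placed only in genes above a mean of 5 CPM, and each gene varied by the spread typical of its level. Recovery in rarer genes, and false calls in genes that vary more than is typical, were therefore not measured.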

Additional observations from a re-analysis of the deposited data

How the results depend on the processing

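Counts of called differences and classes varied with the threshold, the scaling and the libraries. The genes with a called difference between the mutant effects, higher, and the genes with a called difference between the mutant effects, lower, were 2165 and 1126 as reported, and 1096 and 1866 with library size alone, where the direction of the excess reversed with the median of all genes. With an adjusted p under 0.01 they were 1072 and 535, with 377 and 337 for a shared change, higher in both lines and a shared change, lower in both lines, 122 opposite changes, 599 for H2A.Z line only and 640 for Mll2 line only. With a test for more than 1.5-fold (glmTreat) they were 646 and 407, with 313 in the H2A.Z line alone and 324 in the Mll2 line alone. With each line fitted alone 1397 were higher and 648 were changed in the Mll2 line alone; the cause was not tested. Relative log expression factors, centring, both filters on low counts, DESeq2 and limma voom with quality weights left these counts within 1.5 times; DESeq2 gave no adjusted p for the difference in 1634 genes. With libraries left out in turn, the ranges were 918 to 2596 higher, 578 to 2178 lower, 314 to 1176 shared higher, 356 to 965 shared lower, 144 to 624 opposite, 531 to 1930 in the H2A.Z line alone and 598 to 1831 in the Mll2 line alone. By more than 1.5 times, the number higher moved without H2A.Z control 2 (1061), DKO 1 (1281), DKO 2 (1319) and Mll2 WT 2 (918), and the number lower without H2A.Z control 1 (710) and 2 (578), DKO 1 (643) and 2 (721), Mll2 WT 1 (731) and Mll2 KO 1 (2178) and 2 (1828). Opposite changes were fewest without H2A.Z control 2 and most numerous without Mll2 KO 1. A group left with 1 library was assumed to vary like the others. The labels do not say whether replicate numbers pair samples. Deviations of same-numbered libraries correlated across genes by 0.04 and -0.02, which cannot settle it with 1 deviation per group. With a replicate block the counts were 2072 higher, 1047 lower, 881 and 550 shared, 359 opposite, 1164 and 1167 in 1 line alone. Of 180 named genes, 172 had a called difference, 103 of them under every alternative run for named genes, and none reversed. Those alternatives were relative log expression factors, library size alone, DESeq2, limma voom, the replicate block and each library left out. With 2 libraries a group, differences near 2-fold were missed for about 1 gene in 4 of the simulated set. That set placed its differences only in the more abundant genes, and counts of a few reads per library limit the rarer transcripts.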

Other observations

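Genes near the targeted loci were counted for a called difference between the effects of the lines. Within 10 Mb of H2afz, 29 of 108 tested neighbours had one (26.9%), within 10 Mb of H2afv 6 of 88 (6.82%) and within 10 Mb of Kmt2b 40 of 230 (17.4%), beside 19.5% of all tested genes. The counts carry no test.

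Of 258 tested solute carriers, 45 had a called difference (17.4%, near the 19.5% of all tested genes), 29 higher and 16 lower, and with library size alone 14 and 27. Of 31 tested Gpr receptors, 5 were called higher and 2 lower (22.6%). Slc9b1, a sodium-proton exchanger gene, measured 151 and 144 CPM in the H2A.Z controls, 97.1 and 79.4 CPM under the DKO label, 119 and 150.4 CPM for Mll2 WT and 11.1 and 15.9 CPM for Mll2 KO, a fall in both lines that was larger in Mll2 KO (difference 2.58 ± 0.22, edgeR adjusted p = 2.06e-06). The zinc transporter gene Slc30a4 fell in Mll2 KO from 61.8 and 53.8 to 12.4 and 10.7 CPM, against 37 and 29.7 CPM in the H2A.Z controls and 47.6 and 47.5 CPM under the DKO label (difference 2.83 ± 0.21, adjusted p = 4.05e-07). Its rise under the DKO label was lost without H2A.Z control 2, either library labelled DKO or Mll2 WT 2 (adjusted p from 0.0687 to 0.188). Among granulosa cell markers, Cyp19a1, the aromatase gene, fell in Mll2 KO alone, from 47.8 and 51.2 to 27.9 and 30 CPM, against 53.7 and 52.5 CPM in the H2A.Z controls and 54.5 and 59.1 CPM under the DKO label (difference 0.87 ± 0.17, adjusted p = 0.00195), while Fshr and Krt8 of the same list rose in both lines.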
